A study of Mus musculus with 12 samples.

Results

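The comparison described here is that of Usp5-deficient with wild-type mouse peritoneal macrophages before stimulation, and it rests on 6 of the 12 RNA sequencing libraries of the series. Macrophages are phagocytes of the innate immune system, and those of the peritoneal cavity are a common primary cell for studying responses to bacterial products. The 3 libraries of the WT 0 h group came from cells of wild type mice, and the 3 libraries of the MKO 0 h group from cells of animals labelled Usp5 myeloid knockout mice. Both groups were taken at 0 h, as mock cells by the design text, although the treatment tag of every sample reads LPS. The other 6 libraries, 3 of each genotype, were taken 3 h after lipopolysaccharide (LPS), the outer membrane component of Gram-negative bacteria. They serve here to follow a difference seen at rest. They were also fitted together with the resting libraries, and so share the filter on low counts, the scaling and the estimate of spread. The Cre driver, the alleles that the wild-type animals carried and the animals' age are not given in the labels used here. Nothing in the labels says whether the 3 libraries of a group came from separate animals, so each p-value here reflects the spread among these libraries alone, and that spread may be technical.

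Usp5 encodes ubiquitin-specific protease 5, also called isopeptidase T, a deubiquitinase that disassembles unanchored ubiquitin chains and so returns single ubiquitin to the free pool. It recognises the free carboxyl end of a chain and is one of the main enzymes that keep unattached chains from collecting at the proteasome. Work in other cells has tied its loss to accumulated free chains and to activation of p53. In macrophages, ubiquitin chains also carry the signals of Toll-like receptors, cytokine receptors and sensors of viral RNA.

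The Usp5 transcript (ENSMUSG00000038429, minus strand of chr6:124815019-124829484, mm10) was present at 100.5, 111.8 and 121.3 counts-per-million units (CPM) in the WT 0 h libraries and at 28.7, 29.0 and 31.4 CPM in the MKO 0 h libraries. Every knockout library lay well under every wild-type library, and the knockout mean was 26.7% of the wild-type mean. The log2 difference, taken throughout as MKO 0 h minus WT 0 h, was -1.90 (standard error, SE, 0.074, adjusted p = 5.3e-10). The direction matches the labels. In bulk RNA, fewer cells carrying a transcript and less of it per cell cannot be told apart, and this holds for every difference below.

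Among the groups of genes that moved together at rest were sterol synthesis enzymes, interferon-stimulated effectors and cell cycle genes, all in the downward direction. The proximal promoters of some of their members, and of Gbp7, which rose, are shown. They hold short motifs known for these groups. The sterol regulatory element (core TCACNCCAC) is bound by the Srebp factors, the CCAAT box (CCAAT) by NF-Y, the interferon-stimulated response element (core GAAANNGAA) by the Stat and Irf factors, and the cell cycle homology element (TTTGAA) by the complex that represses cell cycle genes in resting cells. Each motif was searched on both strands, from 250 bases before to 50 after the annotated start, and a match on the other strand appears as its reverse complement. Sequences are RefSeq promoters of build GRCm38.p6, written 5′ to 3′ on the gene's strand, with the matches of the named motifs in capitals. Cyp51 lies on the minus strand at chr5:4104648-4104947 and its capitals mark a CCAAT box. Hmgcs1, on the plus strand at chr13:119690101-119690400, was chosen for its sequence, and its capitals mark the sterol element core and 4 inverted CCAAT boxes. The genotype difference of Hmgcs1 is not reported here.
Cyp51: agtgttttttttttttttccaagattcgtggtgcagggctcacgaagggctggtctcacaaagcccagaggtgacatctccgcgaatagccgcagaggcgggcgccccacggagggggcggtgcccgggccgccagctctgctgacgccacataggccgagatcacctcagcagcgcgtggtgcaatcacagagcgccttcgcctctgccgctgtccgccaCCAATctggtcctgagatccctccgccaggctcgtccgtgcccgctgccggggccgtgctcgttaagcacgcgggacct
Hmgcs1: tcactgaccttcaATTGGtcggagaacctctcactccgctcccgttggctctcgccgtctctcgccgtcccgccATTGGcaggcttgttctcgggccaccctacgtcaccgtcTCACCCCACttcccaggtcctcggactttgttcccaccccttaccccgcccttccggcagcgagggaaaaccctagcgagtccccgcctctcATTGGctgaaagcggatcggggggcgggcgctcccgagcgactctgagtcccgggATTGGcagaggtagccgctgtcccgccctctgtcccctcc
Slfn8 (minus strand, chr11:83020761-83021060), Ifit3b (plus strand, chr19:34607707-34608006) and Gbp7 (plus strand, chr3:142530086-142530385) are interferon-inducible, and their capitals mark the interferon element core on the opposite strand. Slfn8 and Ifit3b are of the antiviral effector list and were lower in MKO. Gbp7 is of the Gbp and Irg list and was higher.
Slfn8: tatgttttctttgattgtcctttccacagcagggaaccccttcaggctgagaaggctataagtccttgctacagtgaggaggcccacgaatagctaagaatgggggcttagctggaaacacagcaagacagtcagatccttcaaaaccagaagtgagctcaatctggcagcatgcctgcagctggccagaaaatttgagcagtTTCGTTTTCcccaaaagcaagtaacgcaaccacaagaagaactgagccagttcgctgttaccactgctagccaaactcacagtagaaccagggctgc
Ifit3b: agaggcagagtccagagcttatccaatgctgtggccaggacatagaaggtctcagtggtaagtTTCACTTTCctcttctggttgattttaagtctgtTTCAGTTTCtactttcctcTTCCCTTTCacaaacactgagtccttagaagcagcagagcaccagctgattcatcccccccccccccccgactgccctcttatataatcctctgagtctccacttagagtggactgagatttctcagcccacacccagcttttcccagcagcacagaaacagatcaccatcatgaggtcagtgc
Gbp7: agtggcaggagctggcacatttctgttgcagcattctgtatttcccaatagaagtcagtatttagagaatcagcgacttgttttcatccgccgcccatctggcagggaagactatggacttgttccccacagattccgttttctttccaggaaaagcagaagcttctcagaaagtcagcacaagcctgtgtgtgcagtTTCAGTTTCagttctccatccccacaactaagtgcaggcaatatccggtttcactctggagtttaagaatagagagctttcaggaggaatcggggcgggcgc
Rrm2 (plus strand, chr12:24708004-24708303) and Anln (minus strand, chr9:22389157-22389456) belong to the replication and mitosis lists. The capitals mark a CCAAT box in Rrm2 and, in Anln, adjacent cell cycle homology elements in opposite orientations just after the start.
Rrm2: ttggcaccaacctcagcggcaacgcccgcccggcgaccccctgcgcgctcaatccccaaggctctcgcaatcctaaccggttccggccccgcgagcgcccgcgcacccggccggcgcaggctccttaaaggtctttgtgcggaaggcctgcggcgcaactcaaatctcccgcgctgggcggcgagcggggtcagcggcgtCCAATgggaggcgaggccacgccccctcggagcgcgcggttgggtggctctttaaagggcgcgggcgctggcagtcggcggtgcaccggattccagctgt
Anln: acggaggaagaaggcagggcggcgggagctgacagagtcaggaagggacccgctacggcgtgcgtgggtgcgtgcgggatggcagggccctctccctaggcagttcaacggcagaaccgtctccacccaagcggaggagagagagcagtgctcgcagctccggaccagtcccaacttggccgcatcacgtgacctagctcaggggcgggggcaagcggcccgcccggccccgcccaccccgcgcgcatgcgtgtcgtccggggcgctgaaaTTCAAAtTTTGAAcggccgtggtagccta

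A motif match is a description of the letters in the window and not evidence of binding. The sterol regulatory core was found in 1 of the 20 promoters listed for 17 of the 22 sterol synthesis genes and in 1.24% of all 32851 promoters, while the CCAAT box was found in 80% of those 20 and in 37.4% of all. Of the 52 promoters listed for 43 of the 53 antiviral effector genes, 51.9% held the interferon element core, against 8.56% of all promoters. It was found in 10 of the 12 promoters (83.3%) listed for 11 of the 17 Gbp and Irg GTPases, and the difference between these shares was not tested. The cell cycle homology element was found in 67.5% of the 40 promoters of the mitosis list and in 12.1% of the 33 promoters of the replication list, beside 17.9% of all, and the CCAAT box in 77.5% and 57.6%.

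The 6 resting libraries held 14762709 to 19047826 counts over genes, and composition scaling gave effective sizes of 15465394 to 21103147, on which 1 count was worth 0.0474 to 0.0647 CPM, and 12455 of 18090 genes with a count passed the filter on low counts. The first principal component of these libraries held 56.9% of the variance and parted the genotypes. The second held 18.2% and set the third library of each group apart, at -25.2 in WT and 25.4 in MKO. Library 3 of each group also differed from the others in how the level depended on gene length, with slopes of 0.0194 (WT) and -0.107 (MKO) log2 units per doubling of length against -0.083 to -0.0664 in the other WT and 0.0456 to 0.0731 in the other MKO libraries. Libraries 1 and 2 of a group were closer to each other than to library 3, with a chi-square per degree of freedom over genes of 1.93 (WT) and 2.68 (MKO), against 15.6 to 27.9 for pairs with library 3. Without library 3 of each genotype, 3080 genes were higher and 2954 lower in MKO, and when the counts of libraries 1 and 2 were added up within each genotype, the numbers were 1133 and 1023.

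The genotypes differed at rest in many genes and mostly by small steps. Of the 12455 genes tested, 2055 (16.5%) were higher and 2044 (16.4%) lower in MKO 0 h, so that 32.9% were called at an adjusted p under 0.05 with no minimum fold, beside 5301 at an unadjusted p under 0.05. The median size of the called differences was 0.47 log2 units, with 10th and 90th percentiles of 0.24 and 1.33. At least 2-fold differences were seen for 579 genes called higher and 117 called lower. Counts of list members given below stand beside the 16.5% and 16.4% called over all genes. The 3 values of one genotype lay wholly above those of the other for 19.6% of all tested genes in the upward and 19.8% in the downward direction, and for 91.6% of the called genes. Scaling by library size alone, in place of the composition scaling, moved the median of all genes up by 0.117 and gave 3219 higher and 1195 lower, so differences within about that size of 0 have no fixed direction. Of the genes named below, the calls of Npc2, Pcna, Stmn1, Gbp7, Ccnd1, Cd36, Cd68, Ctss, Calr, Xbp1, Derl1, Atp6ap1, Clec4d and Tpi1 were lost with libraries 1 and 2 summed (adjusted p = 0.052 to 0.14). The same summing also lost those of Lsm7, Gbp2, Ciita, Rpl3, Fcer1g, Ifitm3 and B2m (adjusted p = 0.068 to 0.35). Those of Ubb, Bax, Mcl1, Rpl3, Fcer1g, Ciita, Ifitm3, Gbp2 and B2m were lost in a fit of only the 6 resting libraries (adjusted p = 0.052 to 0.1).

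**Figure D1:**
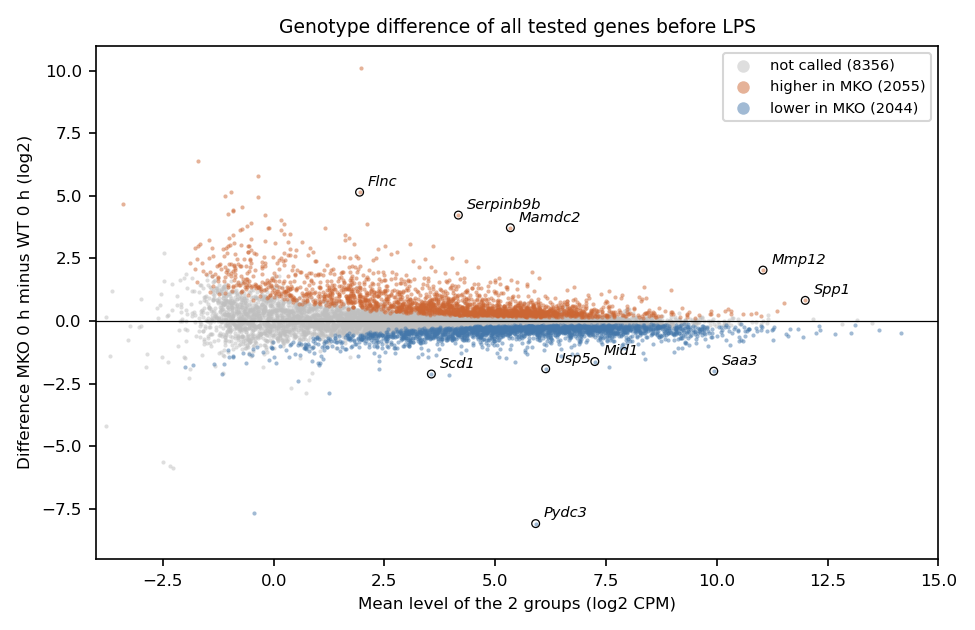
Difference between genotypes at rest (log2, vertical axis) against mean level (log2 CPM, horizontal axis) for the 12455 tested genes, each a point, coloured by call. Called genes lie on both sides, 2055 higher and 2044 lower, with the largest rises among low genes, Mmp12 and Spp1 among the abundant ones that rose, and Pydc3 far below the rest. The uppermost point is Gm16867.

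Rises and falls were spread unevenly over expression level. Of 4 classes of genes of equal size by mean level, in the lowest, up to 5.45 CPM, 579 of 3114 were higher and 182 lower. In the highest class, from 62 CPM, 368 were higher and 927 lower, although scaling by library size alone turned the latter split to 737 higher and 553 lower. Protein-coding genes made up 11780 of the tested genes, with 2011 higher and 1989 lower. Of 201 lincRNAs, 16 were higher and 11 lower, and of 185 antisense transcripts, whose reads could be told from the sense gene only if strand was used in counting, 5 were higher and 17 lower.

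The gene with the smallest p of all was Mmp12, the macrophage elastase, a secreted protease of elastin and other matrix proteins. It stood at 842, 829 and 814 CPM in WT and at 3379, 3437 and 3363 CPM in MKO. The libraries within a genotype differed little, and the knockout level was about 4 times as high in each, at 2.03 log2 units (SE 0.048, adjusted p = 4e-12). Plau, urokinase, which turns plasminogen into plasmin, was at 190, 187 and 183 CPM in WT and 473, 468 and 480 CPM in MKO, a difference of 1.34 (SE 0.047, adjusted p = 1.9e-10). Its receptor Plaur was at 27.0, 27.5 and 28.4 CPM in WT and 77.9, 75.3 and 80.5 CPM in MKO, a difference of 1.49 (SE 0.058, adjusted p = 5.3e-10). Neither gene's groups overlapped. Adamts1, a matrix protease named after its value was seen, rose by 1.67 on the log2 scale (adjusted p = 4.7e-06). Of the 35 tested matrix and protease genes, 12 were higher and 8 lower with a median of -0.01, so the list as a whole had no common direction.

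The 20 largest rises, taken among genes with at least 5 CPM in the higher group and no overlap, included genes hardly detected in wild-type cells. Serpinb9b, a serpin of the granzyme inhibitor family, was at 1.55, 2.06 and 1.80 CPM in WT and 36.2, 33.9 and 32.2 CPM in MKO (4.23, SE 0.12, adjusted p = 1.8e-11). Mamdc2, an extracellular protein with MAM domains, was at 5.43, 5.64 and 6.01 CPM in WT and 77.6, 80.7 and 67.9 CPM in MKO (3.73, SE 0.10, adjusted p = 1.1e-11). Flnc, filamin C, an actin crosslinker best known from muscle, was at 0.26, 0.35 and 0 CPM in WT and 7.82, 9.34 and 5.18 CPM in MKO. The log2 difference of Flnc, 5.14 (SE 0.46, adjusted p = 1.5e-06), rested on very few wild-type counts. Camk2a, a calcium/calmodulin-dependent kinase, rose by 3.86, and Eef1a2, the elongation factor form of neurons and muscle, by 2.98. Pde1c, a phosphodiesterase, rose by 2.76 and Npdc1, a neural proliferation and differentiation gene, by 2.54 (adjusted p = 3.1e-08, 8.6e-08, 7.2e-08 and 5.4e-06).

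Surface and signalling genes made up much of the remainder of those rises. Clec1a, a C-type lectin receptor, rose by 3.42, Lrrc32, which anchors latent TGF-beta, by 3.31, and Ocstamp, needed for fusion of osteoclast precursors and macrophages, by 3.26. Lat, an adaptor of lymphocyte and mast cell receptors, rose by 3.0. Siglecf, an inhibitory sialic acid receptor of eosinophils and alveolar macrophages, was at 1.81, 1.59 and 1.68 CPM in WT and 10.6, 11.6 and 10.2 CPM in MKO (2.67, SE 0.17, adjusted p = 5.6e-08). Hbegf, a growth factor of the EGF family, was at 0.78, 1.47 and 1.38 CPM in WT and 9.71, 9.19 and 8.32 CPM in MKO (2.89, SE 0.19, adjusted p = 7e-08). Lack of overlap was a condition of that ranking. Zbtb10, Gprc5c, Arvcf and Chst7 rose by 2.61, 2.52, 2.51 and 2.51. Lsm7, the remaining gene of that ranking, was at 2.33, 0 and 0 CPM in WT and 2.38, 5.83 and 10.4 CPM in MKO, groups that all but touch (adjusted p = 0.036). That call was lost with DESeq2 (adjusted p = 0.27), with a replicate block (0.073) and in 4 of 6 fits that left out 1 library (0.06 to 0.12). Gm16867, named after its value was seen, had no count in the 3 WT libraries and 8.61, 7.49 and 7.33 CPM in MKO.

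The largest fall was that of Pydc3, a gene of the pyrin and HIN cluster, which was at 126, 128 and 106 CPM in WT and at 0.73, 0.43 and 0.20 CPM in MKO. The transcript was thus close to absent in all 3 knockout libraries and abundant in all 3 wild-type ones (-8.08, SE 0.21, adjusted p = 8.3e-12). Its near-identical neighbours in the cluster can share reads with it, and the same caution holds for the Slfn, Sirpb1, Gbp and H2-Q families. Saa3, an acute phase protein, was at 1644, 1726 and 1317 CPM in WT and 377, 352 and 442 CPM in MKO (-2.0, SE 0.12, adjusted p = 3.1e-08). Mid1, a ubiquitin ligase that binds microtubules, was at 235, 240 and 212 CPM in WT and 71.9, 79.5 and 72.9 CPM in MKO (-1.61, SE 0.068, adjusted p = 1.2e-09). The groups of both were far apart, although lack of overlap was also a condition of this ranking of falls. Sirpb1a, Sirpb1b and Sirpb1c, activating members of the signal regulatory protein family, had log2 differences of -1.48, -1.31 and -1.37, and Ms4a4a, a membrane protein of macrophages, of -1.32. Siglece, an inhibitory sialic acid receptor, fell by 1.43, Gpr84, a receptor for medium-chain fatty acids, by 1.41, Htr2b, a serotonin receptor, fell by 1.31 and Fabp7, a fatty acid binding protein, fell by 1.44. Adgb, Slit1, Dmpk, Lipn and Olfml3, all under 25 CPM in every library, fell by 1.90, 1.58, 1.38, 1.38 and 1.37.

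**Figure D2:**
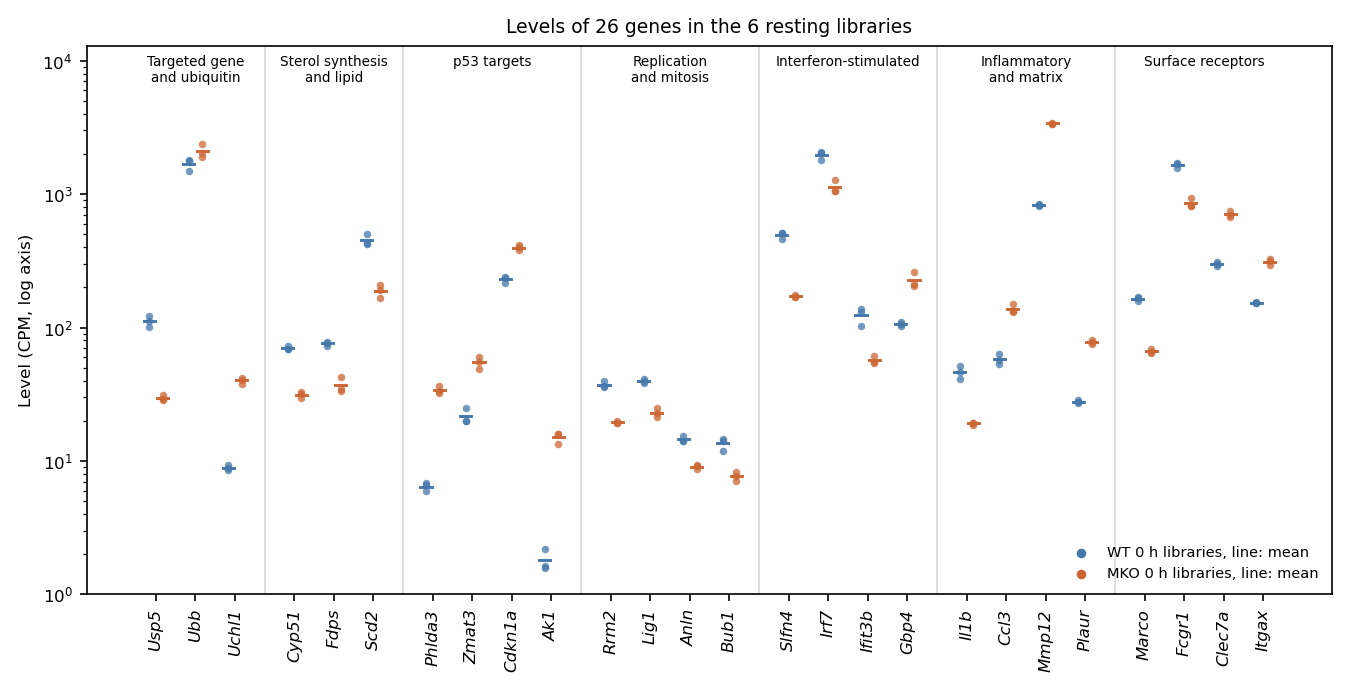
Levels (CPM, log axis) of 26 genes in the 3 WT 0 h and 3 MKO 0 h libraries, with each library as a point and the group mean as a line, arranged by gene group. No gene shown overlaps between genotypes. Usp5, Cyp51, Rrm2, Irf7 and Marco sit lower in MKO, and Mmp12, Phlda3, Uchl1, Gbp4 and Clec7a sit higher.

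The genes closest to Usp5 in function are those that make and recycle ubiquitin. Polyubiquitin genes such as Ubb encode chains of ubiquitin repeats. Ubb was at 1761, 1804 and 1483 CPM in WT and 2035, 1910 and 2387 CPM in MKO, with no overlap and a difference of 0.33 (SE 0.080, adjusted p = 0.0063). Uchl1, a ubiquitin hydrolase abundant in neurons, was at 8.54, 8.93 and 9.31 CPM in WT and 40.7, 37.8 and 42.0 CPM in MKO (2.17, SE 0.090, adjusted p = 9.7e-10). Usp18, which removes the ubiquitin-like protein Isg15, fell by 0.79 (adjusted p = 1.1e-05). Of the 21 tested genes of that list, Usp5 among them, 4 were higher (19%) and 3 lower (14.3%). These shares were close to the 16.5% and 16.4% of all genes tested. The proteasome, which degrades ubiquitinated proteins, had 9 of 24 regulator and assembly genes (37.5%) and 2 of 14 core genes (14.3%) higher and none lower. Psmd11 rose by 0.34 and Psmd4, a receptor for ubiquitin chains, by 0.35 (adjusted p = 0.00035 and 0.0032). That count was not stable. Of the 38 proteasome genes, 8 were higher and 8 lower without the third libraries, and 4 higher with libraries 1 and 2 summed.

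Cytosolic chaperones of the heat shock response had 10 of 23 genes higher and 2 lower. Dnajb4, an Hsp40 cochaperone, was at 23.2, 21.6 and 21.2 CPM in WT and 47.6, 51.2 and 45.2 CPM in MKO (1.13, SE 0.069, adjusted p = 5.1e-08). Hsph1, an Hsp110 chaperone, rose by 0.61, Hsp90aa1 by 0.35 and Hspb1, a small heat shock protein under 3 CPM in every library, by 3.49 (adjusted p = 4.8e-05, 5.1e-05 and 7.2e-05). Hspa8, the most abundant by level per length, differed by -0.03 (adjusted p = 0.69). In autophagy, which carries ubiquitinated cargo to lysosomes, 12 of 26 genes were higher and 4 lower. Gabarapl1, which conjugates to the autophagosome membrane, was at 79.5, 78.1 and 77.8 CPM in WT and 142, 134 and 154 CPM in MKO (0.87, SE 0.064, adjusted p = 2.8e-07). Wipi1, a membrane recruiter, rose by 0.84, Calcoco1, a cargo receptor, by 0.60 and Sqstm1, the ubiquitin-binding receptor p62, by 0.35 (adjusted p = 3e-06, 0.00011 and 5.7e-05). With libraries 1 and 2 summed, 7 autophagy genes were higher.

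Sterol synthesis enzymes went down almost without exception: 19 of 22 were lower and none higher, with a median of -0.68 beside -0.001 over all genes tested. Cyp51, which removes a methyl group from lanosterol, was at 69.3, 69.1 and 72.7 CPM in WT and 29.7, 31.8 and 33.0 CPM in MKO (-1.16, SE 0.068, adjusted p = 3.8e-08). Fdps, which makes farnesyl pyrophosphate and had the highest level per length of the list, was at 73.0, 78.6 and 76.9 CPM in WT and 33.4, 34.6 and 42.9 CPM in MKO (-1.04, SE 0.093, adjusted p = 1.6e-06). Neither gene overlapped between genotypes. Idi1, the isomerase one step before, fell by 1.11 and Msmo1, a sterol methyl oxidase, by 0.69 (adjusted p = 5.6e-08 and 7.7e-07). The same count stood at 19 without the third libraries and at 17 with libraries 1 and 2 summed.

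Regulators and uptake genes of the same pathway fell less uniformly, with 10 of 17 lower and 2 higher. Srebf1, a transcription factor of lipid synthesis, fell by 0.57, Stard4, a cytosolic sterol carrier, by 0.73 and Npc2, which carries cholesterol out of lysosomes, by 0.37 (adjusted p = 1.3e-05, 5.1e-05 and 0.00097). Targets of the liver X receptors (LXR), sensors of oxidised sterols that drive sterol export, went the same way with 12 of 15 lower, none higher and a median of -0.50. Mylip, a ubiquitin ligase of lipoprotein uptake, was at 78.8, 79.3 and 80.4 CPM in WT and 46.7, 47.6 and 48.3 CPM in MKO (-0.74, SE 0.059, adjusted p = 6.1e-07). Nr1h3, LXR alpha itself, fell by 0.94 and Apoe, the lipoprotein of lipid export, by 0.65 (adjusted p = 1.1e-06 and 0.0003). Sterol synthesis enzymes and LXR targets were thus both mostly lower, and the cause was not tested. Mylip and Srebf1 belong to both the regulator and the LXR lists.

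Of 24 fatty acid synthesis genes, 11 were lower and 4 higher. Scd1 and Scd2, which put a double bond into saturated fatty acids, fell by 2.11 and 1.26, and Fads2, a desaturase of polyunsaturated fatty acids, fell by 1.12 (adjusted p = 1.8e-06, 5.6e-08 and 1.1e-05). Lpin1, a phosphatidate phosphatase, went up instead, from 12, 12.5 and 12.4 CPM in WT to 28.8, 29.7 and 25.5 CPM in MKO (1.19, SE 0.10, adjusted p = 1.4e-06). Of 24 genes of fatty acid oxidation and lipid droplets, 9 were higher and 5 lower, against 8 and 7 without the third libraries and 5 and 3 with libraries 1 and 2 summed. Acadl, a dehydrogenase of oxidation, and Pnpla2, the main triglyceride lipase, rose by 0.37 and 0.47, while Fabp5, a fatty acid carrier, and Plin2, a droplet coat protein, fell by 0.70 and 0.39 (adjusted p = 0.00028, 0.00057, 6.3e-05 and 0.00013). Cd36, the fatty acid and scavenger receptor with the highest level per length of those, rose by 0.22 (adjusted p = 0.0017). Alox5 and Ltc4s, enzymes of leukotriene synthesis named after their values were seen, rose by 1.74 and 3.16 from under 2 CPM (adjusted p = 0.00051 and 4.1e-06).

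**Figure D3:**
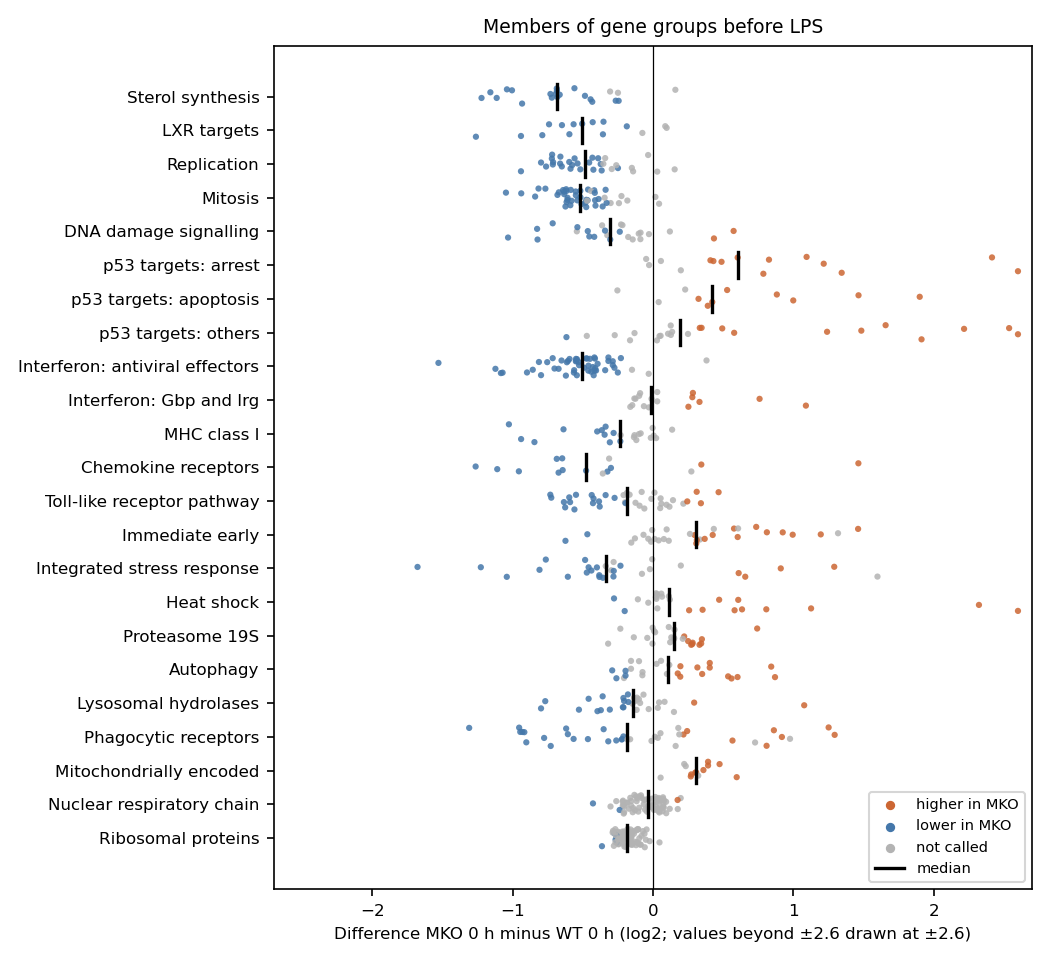
Difference between genotypes at rest (log2, MKO minus WT, horizontal axis) of the tested members of 23 gene groups, each gene a point coloured by call, with the group's median as a vertical bar. Sterol synthesis, LXR, replication, mitosis and antiviral effector genes lie mostly to the left of 0, p53 targets to the right, and the Gbp and Irg genes around 0.

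Targets of p53, the transcription factor of DNA damage and cell stress, were mostly higher. Of 50 tested targets, 30 were higher and 1 lower, with a median of 0.41, and the count was 32 higher and 2 lower without the third libraries and 25 higher with libraries 1 and 2 summed. Among the targets of growth arrest, 11 of 15 were higher and none lower. Phlda3, an inhibitor of Akt signalling, was at 6.60, 5.93 and 6.79 CPM in WT and 33.7, 32.5 and 36.8 CPM in MKO (2.42, SE 0.088, adjusted p = 2.7e-10). Cdkn1a, the cyclin-dependent kinase inhibitor p21, was at 239, 235 and 217 CPM in WT and 382, 399 and 413 CPM in MKO (0.79, SE 0.056, adjusted p = 2.1e-07). Both were without overlap. Zmat3, a zinc finger splicing regulator, rose by 1.34 and Gtse1, a p53 partner of the G2 phase, by 1.22 (adjusted p = 2e-07 and 5.9e-07).

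Apoptosis targets had 8 of 11 higher and none lower. Tnfrsf10b, the mouse death receptor for Trail, was at 2.0, 1.47 and 2.46 CPM in WT and 7.94, 7.39 and 6.88 CPM in MKO (1.90, SE 0.18, adjusted p = 3.4e-06). Pmaip1 (Noxa) and Bbc3 (Puma), which encode BH3-only activators of apoptosis, rose by 1.46 and 1.0, Trp53inp1 by 0.88 and Bax by 0.32 (adjusted p = 3.8e-08, 0.00018, 8.6e-06 and 0.0099). Of the remaining 24 targets, 11 were higher and 1 lower. Ak1, an adenylate kinase, was at 2.20, 1.59 and 1.62 CPM in WT and 15.8, 13.5 and 16 CPM in MKO (3.07, SE 0.15, adjusted p = 8.8e-09). Ephx1, an epoxide hydrolase, rose by 2.54, Psrc1, a spindle protein, by 1.91 and Sulf2, an extracellular sulfatase, by 1.66 (adjusted p = 5.9e-08, 1.7e-06 and 5.6e-08). Rps27l, with the highest level per length of those, differed by 0.25 with overlapping groups (adjusted p = 0.23). Named after their values were seen, Mdm2, the ubiquitin ligase of p53, rose by 0.35 (adjusted p = 5.5e-05), and Trp53, which encodes p53, differed by 0.13 (SE 0.082, adjusted p = 0.27).

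Genes of DNA replication and mitosis were lower. In replication, 23 of 32 were lower and none higher, with a median of -0.49. Lig1, the ligase of the lagging strand, was at 39.6, 41.4 and 38.6 CPM in WT and 22.8, 24.8 and 21.2 CPM in MKO (-0.80, SE 0.071, adjusted p = 1.7e-06). Rrm2, a subunit of ribonucleotide reductase, was at 35.8, 39.8 and 36.5 CPM in WT and 19.2, 19.3 and 19.8 CPM in MKO (-0.94, SE 0.089, adjusted p = 2.8e-06). Neither gene overlapped between genotypes. Uhrf1, which maintains DNA methylation, fell by 0.76, Mcm5, of the replicative helicase, by 0.60 and Pcna, the polymerase clamp and the most abundant per length, by 0.37 (adjusted p = 5.9e-06, 1e-05 and 0.00076).

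In mitosis, 38 of 47 genes were lower and none higher, with a median of -0.52. Anln, the anillin of the cleavage furrow, was at 15.3, 14.2 and 14.1 CPM in WT and 8.73, 9.15 and 9.27 CPM in MKO (-0.68, SE 0.087, adjusted p = 4e-05). The condensin genes Ncapd2 and Ncapg fell by 0.64 and 0.84, the checkpoint kinase gene Bub1 by 0.82 and Stmn1, a microtubule regulator, by 0.46 (adjusted p = 6.7e-05, 7.1e-05, 7.3e-05 and 0.003). Of 18 genes of the step from G1 to S phase, 5 were lower and 3 higher. Rbl1, of the retinoblastoma family, fell by 0.62, E2f7, a repressor of that family's targets, by 0.80 and Cdk2 by 0.44, while Cdk6 and Ccnd1, which act together early in G1, rose by 0.69 and 0.46 (adjusted p = 2.3e-05, 0.00056, 0.00058, 0.00022 and 0.0017). In DNA damage signalling, 11 of 25 genes were lower and 2 higher. Brca2, of homologous recombination, fell by 1.03, and Rpa1 and Rpa2, which coat single-stranded DNA, had log2 differences of -0.45 and -0.54 (adjusted p = 0.00052, 0.00018 and 0.0022).

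Interferon-stimulated effectors were lower before any LPS was given: 49 of 52 fell, none rose, and the median was -0.51. These genes restrict viruses and are held at a basal level in macrophages by tonic type I interferon. Slfn4, of the Schlafen family, was at 508, 513 and 464 CPM in WT and 171, 175 and 169 CPM in MKO (-1.53, SE 0.079, adjusted p = 1.2e-08). Ifit3b, of a family that binds foreign RNA, was at 131, 137 and 103 CPM in WT and 54.0, 54.9 and 61.0 CPM in MKO (-1.12, SE 0.090, adjusted p = 6.2e-07). Slfn8 fell by 0.80 and Cmpk2, a nucleotide kinase, fell by 0.72 (adjusted p = 8.3e-08 and 3.4e-07). The groups of these genes did not overlap, whereas those of Ifitm3, the most abundant per length, did (-0.40, adjusted p = 0.015), and the call of Ifitm3 was lost in 4 of 6 fits that left out 1 library (adjusted p = 0.058 to 0.072). The count was 50 without the third libraries and 36 with libraries 1 and 2 summed.

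The factors that sense viral RNA and carry the interferon signal followed, with 18 of 27 lower and 3 higher. Irf7, the transcription factor that amplifies type I interferon, was at 2052, 2034 and 1787 CPM in WT and 1058, 1049 and 1284 CPM in MKO (-0.79, SE 0.073, adjusted p = 2.3e-06). Ddx58, which encodes the RNA sensor Rig-I, fell by 0.57 and Stat2, of the interferon-activated factor complex, by 0.49 (adjusted p = 4e-06 and 6.6e-06). In the pyrin and HIN group, 8 of 9 tested genes were lower and 1 higher, with log2 differences of -0.76 for Pydc4, -0.68 for Pyhin1, -0.58 for Ifi204 and -0.58 for Mnda (adjusted p = 4.2e-07, 1.1e-06, 5.1e-06 and 5.1e-05).

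The Gbp and Irg GTPases, which attack vacuoles that hold pathogens and respond strongly to interferon gamma, had 6 of 17 tested genes higher, none lower and a median of -0.01. Gbp4 was at 107, 109 and 103 CPM in WT and 205, 213 and 261 CPM in MKO, with no overlap (1.09, SE 0.099, adjusted p = 1.9e-06). Gbp8, Gbp6 and Gbp7 rose by 0.76, 0.33 and 0.25 and Gbp2, the most abundant per length, by 0.28 (adjusted p = 0.00016, 0.00039, 0.0025 and 0.034). The call of Gbp2 was lost with a replicate block (adjusted p = 0.065), in 4 of 6 fits that left out 1 library (0.056 to 0.093) and without the third libraries, where its difference was 0.11 (0.16). This count rested on the third libraries, since 5 were higher and 7 lower without them, and 3 were higher with libraries 1 and 2 summed.

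MHC class I presentation genes were lower for 11 of 22 genes and higher for none. H2-T24 and H2-T22, nonclassical heavy chains, fell by 0.84 and 0.64, and H2-Q7 and H2-Q6 differed by -1.03 and -0.94 (adjusted p = 3.7e-06, 1.4e-05, 1.6e-05 and 0.00011). B2m, the light chain, fell by 0.34 with overlapping groups (adjusted p = 0.022), a call lost in 4 of 6 fits that left out 1 library (0.089 to 0.096) and with scaling by library size only (0.083). Without the third libraries 18 class I genes were lower and 2 higher. In MHC class II presentation 3 of 16 were lower and 1 higher, and the 3 were proteases or a ligase and not class II chains. Lgmn, an asparaginyl endopeptidase of lysosomes, was at 2001, 1993 and 1646 CPM in WT and 1081, 1107 and 1131 CPM in MKO (-0.77, SE 0.063, adjusted p = 8.8e-07). March1, a ubiquitin ligase that removes class II molecules from the surface, fell by 0.66 and Ctss, cathepsin S, by 0.46, while Ciita, the class II transactivator, rose by 0.35 (adjusted p = 2.5e-05, 0.0016 and 0.017), the last a call lost in 3 of 6 fits that left out 1 library (0.066 to 0.076). Without the third libraries 13 class II genes were lower.

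Of 41 cytokine genes, 13 were higher and 8 lower. Spp1, osteopontin, was at 2920, 2972 and 2948 CPM in WT and 5274, 5104 and 5292 CPM in MKO, closely grouped in both (0.83, SE 0.040, adjusted p = 5.4e-09). Csf1, the growth factor of macrophages themselves, was at 20.2, 17.9 and 21.9 CPM in WT and 43.3, 49.2 and 41.5 CPM in MKO (1.16, SE 0.083, adjusted p = 2.1e-07). Il1b was lower, at 46.6, 51.5 and 41.1 CPM in WT and 19.3, 18.8 and 19.4 CPM in MKO (-1.28, SE 0.080, adjusted p = 5.7e-08). None of these 3 overlapped between genotypes. Among 23 chemokine ligands, 4 were higher and 7 lower, or 7 and 6 with scaling by library size only. Ccl3, an attractant of monocytes, was at 57.3, 63.4 and 53.5 CPM in WT and 134, 131 and 150 CPM in MKO (1.25, SE 0.068, adjusted p = 1.7e-08). Cxcl16, Cxcl10 and Ccl5, which attract T cells, had log2 differences of -0.61, -0.93 and -0.98 (adjusted p = 6.7e-06, 2e-05 and 3e-05).

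Of 15 chemokine and chemoattractant receptors, 10 were lower and 2 higher, with a median of -0.48. C3ar1, the receptor for complement fragment C3a, was at 1831, 1803 and 1661 CPM in WT and 1116, 1169 and 1103 CPM in MKO (-0.64, SE 0.047, adjusted p = 2.5e-07). C5ar1, for C5a, fell by 0.65 and Fpr2, for formyl peptides, by 1.11 (adjusted p = 1.1e-06 and 2.6e-06). In the Toll-like receptor pathway, 16 of 37 genes were lower and 4 higher. Tlr1 and Tlr2, which pair to detect bacterial lipopeptides, fell by 0.73 and 0.56, Tlr7, for single-stranded RNA, by 0.63 and Unc93b1, which brings the endosomal receptors to their place, by 0.44 (adjusted p = 3.6e-06, 8.2e-06, 1.5e-05 and 4.6e-06).

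Immediate early genes, which growth factors and LPS switch on within minutes, leaned upward at rest, with 13 of 31 higher and 2 lower. Egr2, a zinc finger factor, was at 13.3, 11.8 and 13.9 CPM in WT and 38.4, 37.3 and 31.5 CPM in MKO (1.46, SE 0.091, adjusted p = 5.6e-08). Rhob, a small GTPase, and Btg2, an antiproliferative factor, rose by 0.92 and 0.60, while Klf10, a TGF-beta-inducible factor, fell by 0.62 (adjusted p = 9.5e-07, 1.2e-05 and 1.1e-05). Atf3, the most abundant per length, differed by -0.01 (adjusted p = 0.96). With libraries 1 and 2 summed, 7 were higher and 1 lower. Inhibitors in the NF-kB feedback loop had 6 of 31 higher and 8 lower, or 14 and 4 with scaling by library size only. Their log2 differences ran from -0.60 to 2.49, with a median of 0.07. Nfkbia, which encodes IkB alpha, fell by 0.60, Birc3 by 0.45 and Bcl3 by 0.42 (adjusted p = 5.5e-06, 4.7e-05 and 0.00012). Sqstm1, given above with autophagy, is also of this list and rose.

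Stress genes of the endoplasmic reticulum and of amino acid supply were more often lower than higher. Of 29 targets of Atf4 and Chop in the integrated stress response, 17 were lower and 4 higher, with a median of -0.34. Mthfd2, a mitochondrial folate enzyme, was at 78.8, 74.3 and 62.1 CPM in WT and 30.8, 28.9 and 32.2 CPM in MKO (-1.23, SE 0.089, adjusted p = 2.2e-07). Nupr1, a stress-induced nuclear protein, fell by 1.04 and Atf4 itself by 0.47, whereas Ppp1r15a, which reverses the stress phosphorylation of eIF2 alpha, and Wars, a tRNA synthetase also induced by interferon, rose by 0.91 and 0.66 (adjusted p = 8.9e-06, 0.0002, 6.1e-06 and 1.8e-05). In the unfolded protein response 9 of 24 were lower and 2 higher, with Atf6 and Xbp1, its transcription factors, falling by 0.36 and 0.32, Derl1 by 0.33, Herpud1 by 0.53 and Calr, calreticulin, by 0.22 (adjusted p = 0.00059, 0.00093, 0.00065, 0.00088 and 0.0013). With libraries 1 and 2 summed, 9 integrated stress genes and 2 unfolded protein genes were lower.

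Targets of Nrf2, the factor of oxidative stress, went in both directions, with 10 of 25 higher and 4 lower. Hmox1, heme oxygenase, was at 837, 838 and 728 CPM in WT and 437, 439 and 430 CPM in MKO (-0.88, SE 0.057, adjusted p = 7.2e-08). Srxn1, sulfiredoxin, was at 72.4, 72.8 and 70.7 CPM in WT and 98.3, 97.5 and 98.3 CPM in MKO (0.45, SE 0.054, adjusted p = 2.5e-05). Prdx1, a peroxiredoxin, rose by 0.39, and Sod2, the mitochondrial superoxide dismutase, fell by 0.60 (adjusted p = 0.0021 and 1.3e-05). In iron handling, where macrophages recycle iron from heme, 9 of 16 were lower and 2 higher. Cp, ceruloplasmin, fell by 0.97, Tfrc, the transferrin receptor, by 0.66 and Ftl1, the ferritin light chain, by 0.48, while the iron exporter gene Slc40a1 rose by 0.46 (adjusted p = 5.6e-08, 1.6e-05, 0.00026 and 5.1e-05).

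Lysosomal hydrolases and membrane proteins had 14 of 30 lower and 2 higher, 23 lower and 3 higher without the third libraries, and 5 lower with libraries 1 and 2 summed. Ctsc, the cathepsin that activates granule proteases, was at 1952, 1938 and 1609 CPM in WT and 1019, 1029 and 1115 CPM in MKO (-0.80, SE 0.066, adjusted p = 8.8e-07). Grn, progranulin, fell by 0.53 and Ctsk fell by 0.77, whereas Ctsf rose by 1.08 (adjusted p = 1.2e-05, 4.6e-06 and 1.5e-05). Psap, the most abundant of the list, differed by -0.07 (adjusted p = 0.21). In the vacuolar proton pump, 3 of 16 were lower and 2 higher, and Atp6v0d2, a subunit best known from osteoclasts, stood out at 208, 213 and 194 CPM in WT and 391, 403 and 398 CPM in MKO (0.95, SE 0.051, adjusted p = 1.6e-08). Atp6v1h rose by 0.39, and Atp6ap1 fell by 0.28 (adjusted p = 0.00012 and 0.00064).

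Phagocytic receptors moved in both directions, with 18 of 37 lower and 8 higher. Marco, a scavenger receptor for bacteria and particles, was at 168, 166 and 158 CPM in WT and 65.7, 68.6 and 64.3 CPM in MKO (-1.31, SE 0.069, adjusted p = 1.4e-08). Fcgr1, the high-affinity IgG receptor, was at 1684, 1697 and 1576 CPM in WT and 818, 810 and 930 CPM in MKO (-0.95, SE 0.058, adjusted p = 4.8e-08). Clec7a, which encodes Dectin-1, the receptor for fungal beta-glucan, went the other way, from 308, 297 and 290 CPM in WT to 678, 703 and 748 CPM in MKO (1.25, SE 0.055, adjusted p = 1.8e-09). Groups did not overlap for any of the 3. Fcgr2b, the inhibitory IgG receptor, fell by 0.93 and Fcer1g, the signalling chain of Fc receptors, by 0.46 with overlapping groups (adjusted p = 5.1e-08 and 0.0069). With libraries 1 and 2 summed, 11 were lower and 6 higher.

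Complement genes had 8 of 17 lower and 3 higher. Cfb, factor B of the alternative pathway, was at 787, 772 and 658 CPM in WT and 314, 311 and 322 CPM in MKO (-1.23, SE 0.066, adjusted p = 1.6e-08), and C1qb, of the classical pathway, fell by 0.60 (adjusted p = 0.0004). Itgax, which encodes CD11c, an integrin of complement receptor 4, was at 153, 153 and 154 CPM in WT and 315, 326 and 296 CPM in MKO (1.03, SE 0.059, adjusted p = 3.1e-08). Neither Cfb nor Itgax overlapped. Of 32 genes of the cytoskeleton and of the serum response factor, 14 were higher and 4 lower. Cd9, a tetraspanin, rose by 0.97, Cnn3, a calponin, by 2.14 and Itgb3, the beta 3 integrin, by 1.32, while Actb, the most abundant per length, fell by 0.50 (adjusted p = 3.9e-08, 2.6e-07, 1.8e-06 and 0.00014). Of 26 polarization genes, 9 were higher and 12 lower, with log2 differences from -2.0 to 3.90. Il4ra, the interleukin 4 receptor, was at -0.57 and Cd38 at -0.92 (adjusted p = 6.1e-07 and 2.4e-06).

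Markers of macrophage identity were abundant in both genotypes, with 4 of 21 tested higher and 8 lower. Adgre1, which encodes F4/80, was at 3161, 3133 and 2923 CPM in WT and 1837, 1834 and 1814 CPM in MKO (-0.75, SE 0.043, adjusted p = 3.1e-08). Cd68, a lysosomal glycoprotein of macrophages, fell by 0.40 (adjusted p = 0.0014), and Csf1r, named after its value was seen, was at 1403 to 1428 CPM in MKO against 1466 to 1549 CPM in WT (-0.08, adjusted p = 0.16). The summed level of the identity list was 12076 to 12559 CPM in WT and 9669 to 10254 CPM in MKO. Lyz2 stood at only 19.8 to 22.3 CPM in WT and 11.8 to 14.5 CPM in MKO, and its near-identical copy Lyz1 may share its reads. Of the listed markers of resident large peritoneal macrophages, Gata6, Timd4, Vsig4, Cxcl13 and Lyve1 were under 0.1 CPM in both genotypes. The other listed markers of that subset, such as Icam2, Cd5l and Alox15, are not reported here. The general markers thus bear out macrophages, and they do not show from which site the cells came. The markers of the resident subset given here were close to absent, and the peritoneal part of the label was not tested.

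Markers of other cells of the cavity are given as summed levels per library, and their part in the differences was not tested. Summed neutrophil markers were 403 to 497 CPM in WT and 443 to 525 CPM in MKO, with overlapping ranges. Of the 12 tested neutrophil markers, 2 were higher, 1 was lower and 9 were not called. Mpo and Elane, granule enzymes of neutrophil precursors, rose by 0.90 and 1.16 (adjusted p = 2e-05 and 0.00018). The lower marker was Csf3r, which made up 28% of the neutrophil sum. Small macrophage and monocyte markers summed to 481 to 542 CPM in WT and 507 to 547 CPM in MKO. Without Ccr2, which made up 37.3%, these sums were 274 to 319 and 330 to 380 CPM, with no overlap. Dendritic markers summed to 814 to 928 and 775 to 853 CPM. Of the dendritic sum 61.5% was Bst2, also an interferon-inducible gene, and without it the sums were 259 to 263 CPM in WT and 367 to 408 CPM in MKO, with no overlap. B cell markers summed to 61.3 to 66.3 CPM in WT and 61.7 to 83.2 CPM in MKO, and without Cd22 to 24.2 to 28.5 and 39.4 to 58.1 CPM, with no overlap. Ighm and Igkc were higher by 1.12 and 1.76, and Cd22 fell by 0.66 (adjusted p = 2.7e-05, 0.0015 and 1.9e-05). T and NK cell markers summed to 253 to 264 CPM in WT and 205 to 223 CPM in MKO, of which 94.8% was Il7r, and without it to 10.3 to 12.5 and 13 to 13.6 CPM. Mast cell markers summed to 178 to 188 and 151 to 171 CPM, of which 92.5% was Hpgds, and Cma1, Mcpt4, Tpsb2 and Tpsab1 were under 0.1 CPM. Eosinophil markers summed to 47.6 to 55.3 CPM in WT and 42.7 to 44.4 CPM in MKO, with Ccr3 at a log2 difference of -0.96 (adjusted p = 8.6e-06) beside the rise of Siglecf. Without Ccr3, which made up 69.3%, the eosinophil sums were 7.52 to 9.85 CPM in WT and 20.3 to 21.5 CPM in MKO, with no overlap. Endothelial and erythroid markers summed to 62.4 to 71.2 and 53.7 to 63.3 CPM, and without Vwf to 44.2 to 49.6 and 27.7 to 31 CPM. Mesothelial and fibroblast markers summed to 6.85 to 7.93 and 4.26 to 6.38 CPM, with Msln, Wt1, Upk1b and Nkx2-3 under 0.1 CPM.

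For genes of energy and protein synthesis the counts depended on the third libraries. Of 13 mitochondrially encoded respiratory genes, 9 were higher and none lower, with a median of 0.31, and 6 were higher without the third libraries. mt-Cytb was at 1076, 1050 and 945 CPM in WT and 1260, 1346 and 1657 CPM in MKO (0.47, SE 0.083, adjusted p = 0.00057), and mt-Co1, the most abundant, differed by 0.05 (adjusted p = 0.55). Of 72 nuclear-encoded respiratory subunits, 1 was higher and 2 lower, but 44 were lower without the third libraries. Of 75 cytosolic ribosomal protein genes, 6 were lower and none higher, but 73 were lower without the third libraries and none with libraries 1 and 2 summed. Rpl3 fell by 0.26 (adjusted p = 0.0074), and Rplp1, with the highest level per length of the large subunit, had overlapping values of 313 to 367 CPM in WT and 246 to 376 CPM in MKO. Among 17 clock genes, 6 were higher and none lower, led by Npas2, a partner of Arntl, at 2.25 (adjusted p = 9e-06).

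Of 15 Bcl2 family genes, 5 were higher, with Pmaip1, Bbc3 and Bax of the p53 list among them, and 2 lower, or 5 and 6 without the third libraries. The 2 were Bcl2l1 and Mcl1, survival proteins that fell by 0.29 and 0.25 (adjusted p = 0.00097 and 0.0054). Of 20 genes of pyroptosis and necroptosis, 7 were lower and 2 higher. Zbp1, a nucleic acid sensor that triggers necroptosis, fell by 0.55 and Mefv, which encodes pyrin, by 0.71, whereas Ninj1, which ruptures the membrane of dying cells, rose by 0.47 (adjusted p = 1.3e-05, 3.3e-05 and 0.0002). Glycolysis and hypoxia genes had 4 of 27 higher and 6 lower, with Pfkp, a phosphofructokinase, up by 0.71 and Ldha, lactate dehydrogenase, down by 0.42 (adjusted p = 2.4e-06 and 5.3e-05). Splicing factors had 1 of 26 higher and 3 lower, and ribosome biogenesis factors 6 of 30 higher and 2 lower.

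Genes near Usp5 on chromosome 6 were described as a group because they share its locus. Of 56 tested genes within 2 Mb, 8 were higher (14.3%) and 15 lower (26.8%), beside 16.5% and 16.4% of all genes, and their log2 differences ran from -0.92 to 0.98. None came near the fall of Usp5 itself. Tpi1, a glycolytic enzyme and the nearest gene on one side, fell by 0.31, and Cdca3, a cell cycle gene that begins just past the other end, by 0.63. The C-type lectin receptors of that region differed among themselves. Clec4a1, Clec4a3, Clec4a2, Clec4e and Clec4d had log2 differences of -0.92, -0.90, -0.78, -0.73 and -0.35, and Clec4n, which encodes Dectin-2, was higher by 0.57. Lpcat3, a phospholipid remodelling enzyme and LXR target, fell by 0.43 and Grcc10 by 0.74, while Eno2, an enolase, rose by 0.68. Of the 23 called genes in the window, 15 were called the same way at 3 h.

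**Figure D4:**
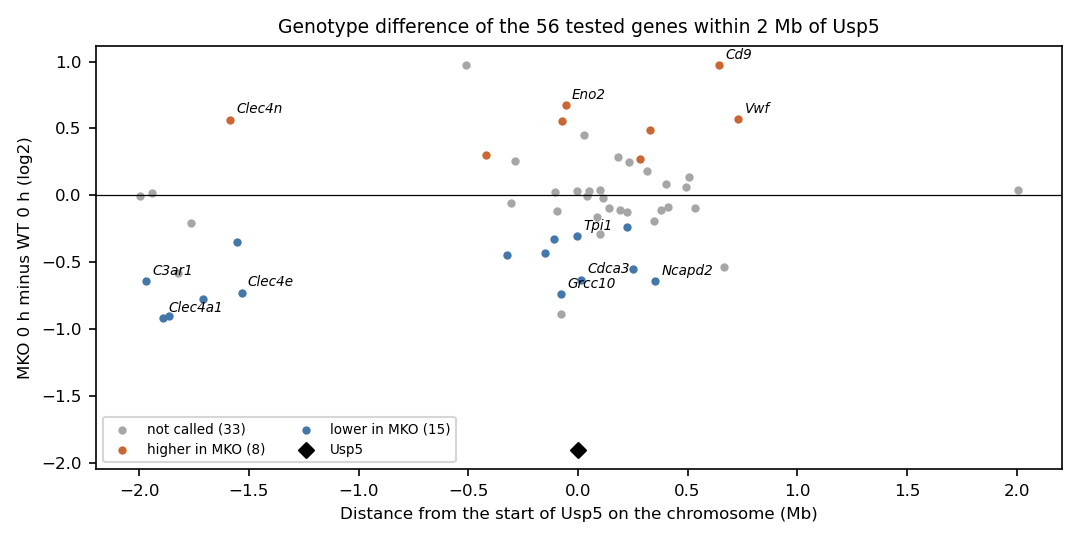
Difference between genotypes at rest (log2, vertical axis) of the 56 tested genes within 2 Mb of Usp5 against distance in Mb (horizontal axis), coloured by call, with Usp5 as a diamond. The 8 higher and 15 lower genes lie between -0.92 and 0.97 on both sides of Usp5, which alone is near -1.90.

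Differences seen at rest were followed in the 6 libraries taken after 3 h of LPS. These enter the resting comparison only through the shared filter, scaling and estimate of spread. At 3 h, 2463 genes (19.8%) were higher and 2863 (23.0%) lower in MKO. Of the 4099 genes called at rest, 2906 (70.9%) were called in the same direction at 3 h, 124 in the opposite direction and 1069 not at all. The share was 76.8% of the genes lower at rest and 65.1% of those higher, and the difference between these shares was not tested. The log2 differences at 0 h and 3 h had a Pearson r of 0.65 and a Spearman rho of 0.65 across the 12455 genes, which are not independent of each other. An interaction of genotype and LPS was called for 6.80% of all tested genes and for 391 (9.54%) of those called at rest.

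All but 1 of the 19 sterol synthesis genes lower at rest were lower at 3 h, as were all 49 antiviral effectors, 20 of 23 replication and 36 of 38 mitosis genes, 11 of 12 LXR targets and 14 of the 15 called fatty acid synthesis genes. In these lists no gene turned. Of the 31 p53 targets called at rest, 21 were called the same way and 4 the opposite way at 3 h. Phlda3, Zmat3 and Tnfrsf10b stayed higher at 2.64, 1.49 and 2.26, whereas Cdkn1a and Pmaip1 stood at -0.14 and 0.12 (adjusted p at 3 h = 0.054 and 0.21). Of the 15 immediate early genes called at rest, 3 were called the same way and 9 the opposite way, and the list had 4 higher and 16 lower at 3 h. Cytokine ligands went from 13 higher and 8 lower to 8 higher and 24 lower, and the NF-kB inhibitors from 6 higher and 8 lower to none higher and 23 lower. Ccl3 passed from 1.25 higher at rest to a log2 difference of -1.53 at 3 h. None of the 9 mitochondrially encoded genes called at rest was called at 3 h.

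**Figure D5:**
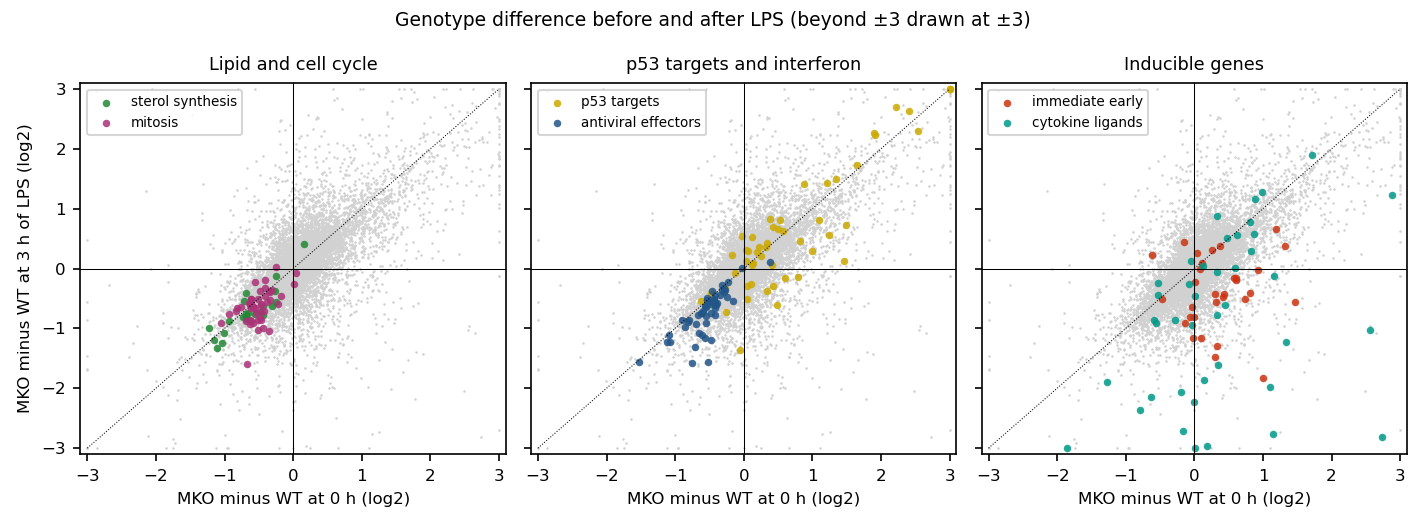
Difference between genotypes after 3 h of LPS (vertical axis) against that at rest (horizontal axis), both log2 and MKO minus WT, for all tested genes in grey and the named groups in colour, with the line of equal difference dotted. Sterol synthesis, mitosis and antiviral effector genes lie in the lower left, most p53 targets in the upper right, and many immediate early and cytokine genes to the right of or near 0 at rest and below 0 after LPS.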

How the data were processed

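RNA was extracted with TRIzol and sequenced by Illumina RNA-seq, per the labels' protocols. The submitters' processing notes name fastp, a read trimmer, and the mm10 build. Aligner, counter, strand setting and annotation are not stated in these sources. The authors deposited raw counts per gene and TPM, a length-scaled measure, for 48709 genes. 48349 of the gene identifiers were found in GENCODE release M21, which gave positions and types. TPM served here only to compare levels between genes.

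Counts were tested with edgeR 4.0.16 (R 4.3.3, limma 3.58.1): 1 quasi-likelihood fit to all 12 libraries with 4 group means, trimmed mean of M-values (TMM) scaling, edgeR's expression filter and Benjamini-Hochberg adjustment over 12455 genes, called at an adjusted p of 0.05 with no fold minimum. The resting libraries held 14762709 to 19047826 counts. CPM are on TMM-scaled library sizes of 15465394 to 21103147, so 1 count is 0.0474 to 0.0647 CPM. Alternatives were other scalings and filters, DESeq2 1.42.0, a replicate block, each library left out, and corrections for gene length. The fit was tested on simulated data. Of the alternatives, the length slope as a covariate was chosen after seeing the data. The main fit, the members and the lists were chosen with earlier results of these data known. Genes were named by rule: Usp5; the 20 largest called rises and falls with at least 5 CPM in the higher group and no overlap; up to 4 members of each list with the smallest p and the highest by TPM; and genes within 2 Mb of Usp5. Adamts1, Alox5, Ltc4s, Mdm2, Trp53, Csf1r and Gm16867 were chosen after their values were seen. Replicate numbers came from the labels, and the main fit took no pairing from them. Promoters were RefSeq sequences of GRCm38.p6, and the tables matched 17 of 22 sterol synthesis, 43 of 53 antiviral, 11 of 17 Gbp and Irg, 26 of 32 replication and 38 of 48 mitosis genes. Some named-by-rule genes are not reported here.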

Additional observations from a re-analysis of the deposited data

Results flagged for a closer look

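For 41 of the genes named above, the difference between genotypes at 3 h of LPS differed from that at rest by the interaction test of edgeR (adjusted p under 0.05 over all 12455 genes). The values below are the interaction on the log2 scale, the difference MKO minus WT at 3 h less that at rest, from 3 libraries in each of the 4 groups. Among genes higher in MKO at rest, the interaction was negative for Ccl3 -2.79, Ppp1r15a -2.58, Egr2 -2.02, Lrrc32 -2.0, Adamts1 -1.68, Hbegf -1.65, Plaur -1.45, Clec1a -1.34 and Pmaip1 -1.34. The same sign was found for Csf1 -1.28, Dnajb4 -1.23, Rhob -0.95, Cdkn1a -0.93, Btg2 -0.77, Mdm2 -0.72, Eno2 -0.66, Sqstm1 -0.66 and Spp1 -0.54. The same sign was found for Gbp6 -0.47, Ninj1 -0.36, Acadl -0.31, Gbp7 -0.30, Plau -0.29 and Mmp12 -0.23. It was positive for the gene higher at rest Trp53inp1 0.52. Among genes lower at rest, the interaction was positive for Gpr84 0.99, Adgb 0.99, Olfml3 0.98, Klf10 0.85, Siglece 0.66, Nr1h3 0.46 and Cfb 0.33. It was negative, a wider gap at 3 h, for the lower genes Cxcl10 -1.0, Il1b -0.62, Cmpk2 -0.60, Nupr1 -0.56, C5ar1 -0.55, Clec4e -0.54, Mcl1 -0.34 and Birc3 -0.29. Of the genes not called at rest, it was negative for Atf3 -0.80. No explanation of these differences was tested.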

How the results depend on the processing

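The 2055 higher and 2044 lower genes at rest became 3219 and 1195 with scaling by library size only, 1133 and 1023 with replicates 1 and 2 of each group summed, and 156 and 21 when a 2-fold difference was itself tested. A fit of only the 6 resting libraries gave 1401 higher and 1297 lower genes. Leaving out 1 library at a time gave 1563 to 2490 higher and 1555 to 2302 lower genes, 2395 to 3430 genes called the same way at 3 h and 255 to 638 called at rest with a called interaction. The lowest and highest of the last were without WT 0 h replicate 2 and without WT 0 h replicate 3, beside 391 with all libraries. With replicates 1 and 2 summed, 1555 genes were called the same way at 3 h and 98 had a called interaction, and the counts fell to 3 higher Gbp and Irg genes, 9 lower integrated stress genes, 11 lower phagocytic receptors and 7 higher autophagy genes. Without library 3 of each genotype at rest 1708 genes had a called interaction, and with the length slope as a covariate, chosen after seeing the data, 910. The cause of these changes was not tested, beyond the fewer libraries that the summed and left-out fits hold. Same-numbered deviations at rest correlated at -0.155, -0.094 and -0.337, and 0 of 3 WT libraries were closest to their own number. The third libraries of the genotypes deviated in opposite directions, so this check cannot decide whether the replicate numbers pair the libraries. The replicate block gave 1864 higher and 1839 lower genes. In the leave-one-out fits the Usp5 difference ran from -1.97 to -1.84, lower sterol synthesis genes from 18 to 19, lower antiviral effectors from 48 to 50, higher p53 targets from 29 to 31, lower mitosis genes from 30 to 36, lower replication genes from 21 to 25, LXR targets from 11 to 12 and chemoattractant receptors from 10 to 11. No named gene called at rest changed sign under the alternatives run. The balance of higher and lower calls did turn for some lists. Without library 3 of each genotype it turned for Gbp and Irg genes (5 higher, 7 lower), genes of the step from G1 to S phase (4 and 3), NF-kB inhibitors (11 and 9), core proteasome genes (1 and 5) and the Bcl2 family (5 and 6). With scaling by library size only it turned for chemokine ligands (7 and 6), NF-kB inhibitors (14 and 4), the proton pump (5 and 1), nuclear respiratory subunits (7 and 0), glycolysis (7 and 5), splicing factors (7 and 1), pyroptosis genes (5 and 3) and the highest level class (737 and 553). Further turns were seen in other fits for some of these lists. They included nuclear respiratory subunits (14 and 3 with the length slope as a covariate). The ubiquitin genes also turned (4 and 6 with the length trend removed). Also, a list median within 0.117 below 0, such as those of the Gbp and Irg and the matrix and protease lists, turns positive with scaling by library size only. With replicates 1 and 2 summed, 21 of the named genes lost their call. Without library 3 of each genotype the differences of Dmpk (-0.88), Igkc (0.96), Prdx1 (0.23), Psmd4 (0.21) and mt-Cytb (0.30) were smaller by over 1.5 times. Genes not called at rest that passed in at least 1 alternative were Csf1r, Trp53, Rps27l, Hspa8, Psap, Hpgds, Rplp1 and mt-Co1. At 0.0474 to 0.0647 CPM a count, genes near 0 in 1 genotype have no precise fold.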
